A study of Mus musculus with 8 samples.

Results

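The 10 genes described here encode the scaffold protein JLP (gene Spag9), the related scaffold JIP3 (Mapk8ip3) and 8 kinases of the p38 and JNK mitogen-activated protein kinase (MAPK) cascades. They were taken as a list of gene symbols, drawn up with earlier results of these data known, and are 10 of the 24421 genes in the count table. All of them were among the 12254 genes tested. RNA was sequenced from bone marrow neutrophils, separated magnetically, of 8-week-old female mice of the C57BL/6 (B6) background. There were 4 groups of 2 libraries: wild-type (WT) neutrophils without stimulation, WT neutrophils given R848, Padi4 knockout (Padi4 KO) neutrophils without stimulation, and Padi4 KO neutrophils given R848. R848 is a small-molecule agonist of Toll-like receptor 7 (TLR7), used at 1 µg/ml for 6 h. Padi4 encodes peptidylarginine deiminase 4, an enzyme that turns arginine in proteins into citrulline, and the KO mice lack exon 1 of that gene. The labels do not say whether the 2 libraries of a group came from separate mice, so the spread between them may be technical only.

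MAPK cascades pass a signal through 3 tiers of kinases. A MAP3K phosphorylates a MAP2K, the MAP2K phosphorylates the MAPK, and the MAPK phosphorylates its substrates, among them further kinases. MKK3 (Map2k3) acts on p38, MKK7 (Map2k7) on JNK and MKK4 (Map2k4) on both. Scaffolds such as JLP and JIP3 hold several tiers together and also link them to the kinesin and dynein motors. In neutrophils, p38 is known for its part in adhesion, priming and the making of cytokines, partly through MK2 (Mapkapk2) and MK3 (Mapkapk3). RNA-sequencing measures the mRNAs of these proteins and says nothing of their phosphorylation.

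Between 562446 and 1177972 reads per library were counted on genes, with a mean of 620594.5 in WT and 1032734.5 in Padi4 KO libraries. Padi4 itself had 590 and 527 counts in unstimulated WT, 40 and 54 in unstimulated Padi4 KO, 166 and 234 in WT after R848, and 34 and 21 in Padi4 KO after R848. The labels mark the unstimulated libraries with 0 h, whereas the study's methods state 6 h for all. Should the labels be right, every R848 response below would also hold the change over 6 h in culture, and these cannot be told apart. Of 12 neutrophil markers, 11 were in the table and all 11 were detected. Their summed level, in CPM (reads scaled to a common library total) without TMM factors, was between 123780 and 157754 in the unstimulated and between 102636 and 141468 in the R848 libraries, and lower in both Padi4 KO groups than in the WT group of the same treatment. Erythroid markers, of which 8 of 14 in the table were detected and 6 globin genes were at 0, summed to between 22.4 and 81.1 in WT and between 729 and 1003 in Padi4 KO libraries. Monocyte and macrophage markers, 10 of 10 detected, summed to between 2583 and 2629 in unstimulated WT, between 3984 and 3996 in unstimulated Padi4 KO, and between 6391 and 6661 after R848 in both genotypes. Stromal and endothelial markers, 6 of 7 detected, summed to between 201 and 226 in unstimulated WT and between 518 and 659 in unstimulated Padi4 KO, and to at most 47.6 after R848. The part of these shifts in the results below was not tested. In such bulk RNA, fewer cells of a type and less RNA per cell cannot be told apart.

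The promoters of the 4 members that rose after R848 in both genotypes are shown first, because they are the genes whose rise passed the test in each. Each sequence is the 250 bases before the first RefSeq start site, from GRCm38.p6, 5′ to 3′ on the strand of the gene. Capitals mark the letters GGGCGG (a GC box) or TGACG (a cyclic AMP response element in part), found on either strand, so that CCGCCC and CGTCA are the same letters read from the opposite strand. Spag9 lies at chr11:93995841-93996090 on the plus strand, Map2k3 at chr11:60931804-60932053 on the plus strand, Mapk14 at chr17:28691092-28691341 on the plus strand and Mapkapk2 at chr1:131097844-131098093 on the minus strand.
Spag9: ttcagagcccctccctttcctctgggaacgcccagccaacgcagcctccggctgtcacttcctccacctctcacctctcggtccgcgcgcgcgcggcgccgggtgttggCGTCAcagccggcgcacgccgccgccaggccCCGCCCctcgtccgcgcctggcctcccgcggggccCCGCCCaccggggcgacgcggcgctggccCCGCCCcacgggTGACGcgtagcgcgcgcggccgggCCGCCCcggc
Map2k3: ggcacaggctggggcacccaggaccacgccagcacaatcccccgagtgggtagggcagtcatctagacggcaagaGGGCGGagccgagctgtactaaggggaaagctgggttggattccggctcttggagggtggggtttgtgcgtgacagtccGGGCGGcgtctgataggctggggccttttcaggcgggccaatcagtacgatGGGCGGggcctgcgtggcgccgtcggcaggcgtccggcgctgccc
Mapk14: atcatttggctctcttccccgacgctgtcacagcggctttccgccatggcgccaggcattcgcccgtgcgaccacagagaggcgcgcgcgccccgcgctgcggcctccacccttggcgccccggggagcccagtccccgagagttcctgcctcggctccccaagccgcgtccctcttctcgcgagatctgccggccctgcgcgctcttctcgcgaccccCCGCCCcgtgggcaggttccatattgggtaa
Mapkapk2: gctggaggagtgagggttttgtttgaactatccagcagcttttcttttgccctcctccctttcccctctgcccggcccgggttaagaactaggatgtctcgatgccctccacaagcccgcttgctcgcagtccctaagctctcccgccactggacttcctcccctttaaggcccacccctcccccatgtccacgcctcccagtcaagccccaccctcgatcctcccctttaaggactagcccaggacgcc

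The Spag9 window was the richest in G and C of the 4, at 80%, and held GGGCGG 4 times and TGACG 2 times. The Map2k3 window (67.6% G and C) held GGGCGG 3 times and CCGGAA, the core letters of ETS factor sites, 1 time. The Mapk14 window (70.4%) held GGGCGG 1 time, whereas the Mapkapk2 window (60.4%) held none of the letters searched. Across 32851 mouse promoter windows of the same length, 32.7% held GGGCGG, 17.8% held TGACG and 12% held CCGGAA on either strand. The other letters searched were TGANTCA (AP-1, in 6.75% of the promoters), TGACGTCA (the whole cyclic AMP response element, in 1.55%), CACGTG (an E-box, in 6.02%), and 2 forms of the NF-κB motif (in 1.41% and 4.65%). Searches covered both strands, TGACGTCA contains TGACG, and the 2 NF-κB forms overlap each other. None of these was found in the 4 windows printed. Among the members not printed, the first window of Mapk8 (79.2% G and C) held GGGCGG 7 times and TGACG 2 times. TGACG also stood in the first windows of Mapk8ip3, Mapk9, Map2k4 and Mapkapk3, whereas that of Map2k7 held neither. Among the 4 printed, TGACG stood in that of Spag9 alone. GGGCGG and TGACG were thus not particular to the members that rose.

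The members differed widely in level. Per kilobase of merged exons and on the CPM scale after TMM scaling (which corrects the totals for genes that take up much of a library), p38α (Mapk14) was the highest member in unstimulated WT neutrophils at 104 ± 6.99 CPM per kb (SD, n = 2), followed by Mapkapk2 at 78.3, Map2k3 at 40.0, Mapkapk3 at 31.9, Map2k4 at 26.9 and Map2k7 at 13.1. Both scaffolds stood near the bottom, with Spag9 at 6.48 ± 0.192 (SD, n = 2) and Mapk8ip3 at 4.30 ± 1.12 (SD, n = 2). The JNK genes Mapk9 and Mapk8 were lowest, at 3.59 and 1.26 CPM per kb. Neighbours in this order did not overlap in their library values, with the exception of Mapk8ip3 and Mapk9. After R848, Mapkapk2 moved to the top in both genotypes, at 675 CPM per kb in WT and 549 in Padi4 KO. Mapk14 (134 and 130) and Map2k3 (79.7 and 58.2) came next. Spag9 stood at 14.4 CPM per kb in WT and 7.01 in Padi4 KO, above Map2k7 in WT and below it in Padi4 KO. With exon lengths from the GENCODE basic set, chosen as a check after the data were seen, the first 2 places were the same in all 4 groups, while Map2k3 and Mapkapk3 changed places in unstimulated WT, the 2 scaffolds changed places in each group except WT after R848, and Map2k7 stood below both scaffolds after R848. In unstimulated WT these lengths gave 11.1 CPM per kb for Mapk8ip3, 9.43 for Spag9 and 13.3 for Map2k7. The SDs above do not cover this choice of length.

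**Figure D1:**
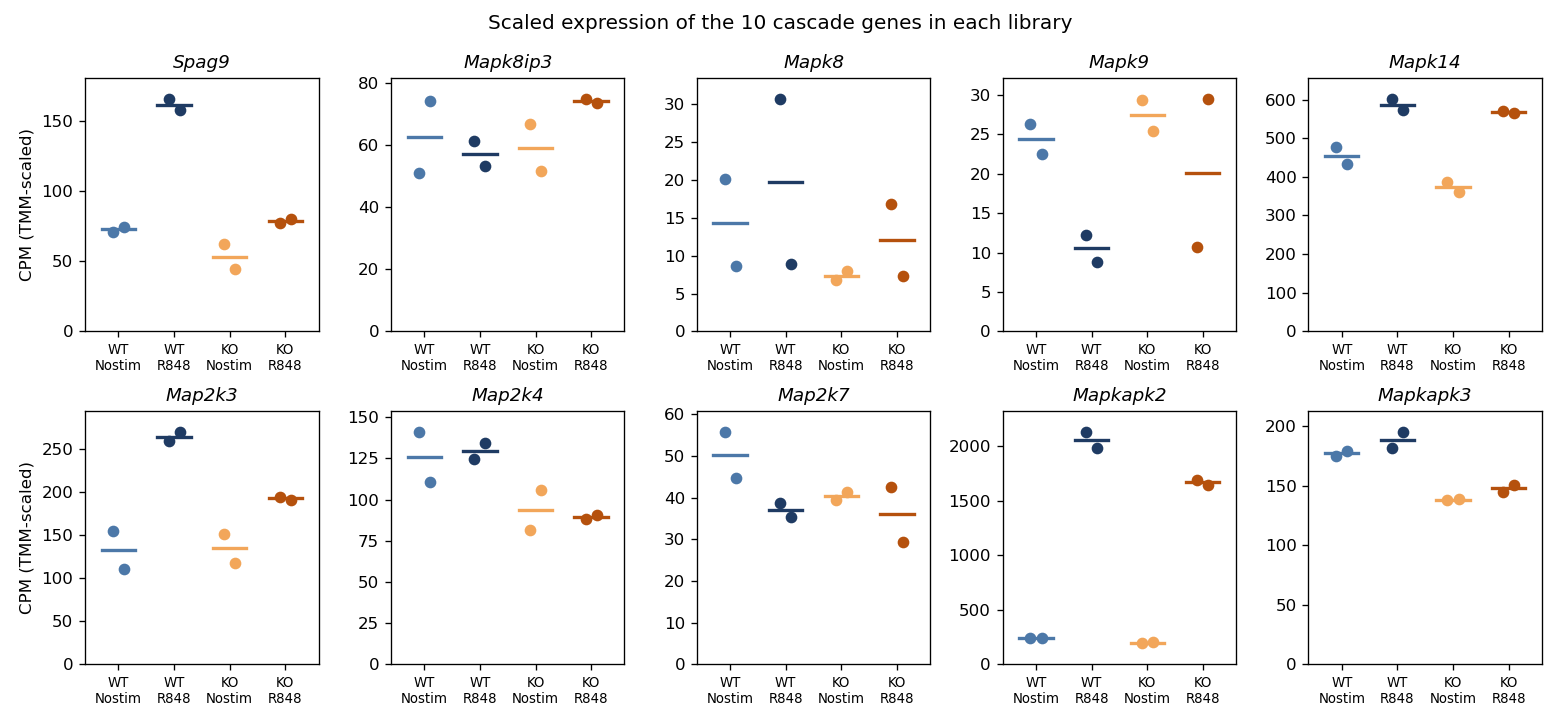
TMM-scaled CPM (vertical axis, from 0) of each of the 10 genes in the 4 groups; points are single libraries and bars are the means of 2. Spag9 reached 157 and 165 CPM in WT after R848 and stayed below 80 CPM in the other 6 libraries, whereas Mapkapk2 rose about equally in both genotypes.

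A gene was called changed at a false discovery rate (FDR) below 0.1, the Benjamini-Hochberg adjusted p of edgeR's quasi-likelihood test over the 12254 genes, and a response to R848 was also required to exceed 2-fold. In WT neutrophils, 2 of the 10 members passed both limits upward (Spag9 and Mapkapk2) and 1 downward (Mapk9), against 7.18% and 10.8% of all genes tested. By FDR alone, 4 rose and 1 fell, against 13.5% and 16% of all genes. In Padi4 KO neutrophils, 1 member (Mapkapk2) rose by both limits and none fell, against 8.09% and 8.83% (16.9% in either direction), and 4 rose by FDR alone, against 19.2%. All 10 members were among the 6912 genes with a mean of at least 10 counts, of which 22.1% rose and 23.2% fell by FDR alone in WT, and 30.5% and 20.4% in Padi4 KO. Both lists of 4 were Spag9, Mapk14, Map2k3 and Mapkapk2. The median log2 fold change of the 10 members was 0.23 in WT and 0.45 in Padi4 KO, beside −0.17 and −0.03 for all genes tested. The libraries of the 2 treatments did not overlap for 5 members upward and 2 downward in WT (23.2% and 31.3% of all genes), and for 6 upward and 0 downward in Padi4 KO (29.5% and 31.6%).

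**Figure D2:**
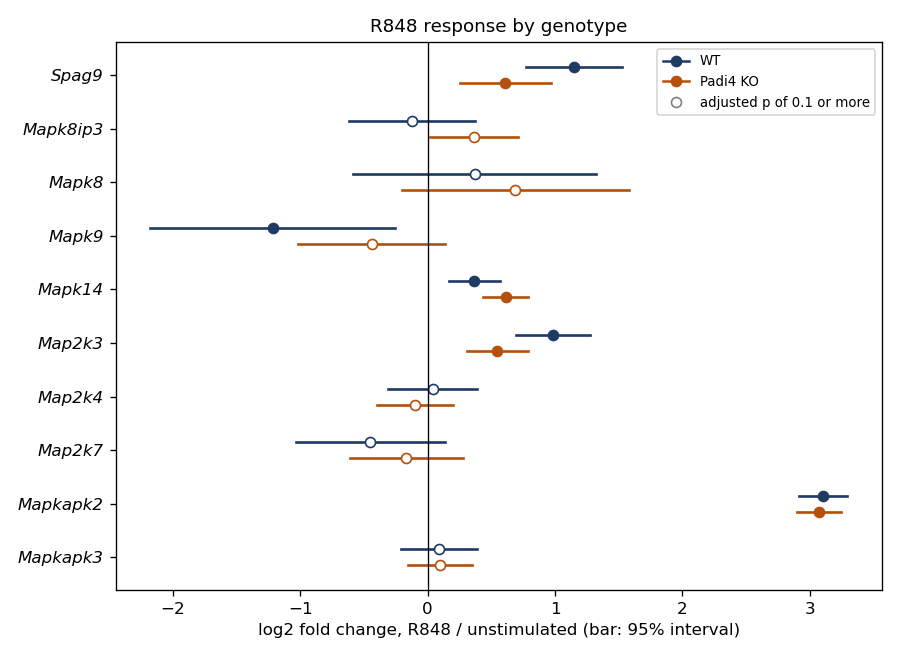
Log2 fold change after R848 (horizontal axis) of each member in WT and Padi4 KO neutrophils with 95% intervals; open points did not pass the FDR. Mapkapk2 lies near 3 in both genotypes, and Spag9 lies at 1.15 in WT and 0.61 in Padi4 KO.

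The direct test of the difference between the 2 responses called 0 of the 10 members, against 4.69% of all genes (3.44% higher and 1.26% lower in Padi4 KO). That split is of the main fit with TMM, where 421 genes were higher and 154 lower, and it turned in some other runs. Relative log expression factors gave 160 and 233, and DESeq2 gave 35 and 90. With TMM kept, thinned counts gave 61 and 283. Leaving out 1 of the 4 stimulated libraries, also with TMM, gave between 52 and 124 higher and 196 and 349 lower. At an unadjusted p below 0.05, edgeR gave 2 members (Spag9 and Map2k3) and DESeq2 gave 1. Of the genotype comparisons, the unstimulated one called 0 members higher and 4 lower in Padi4 KO (9.54% and 14.4% of all genes, 24% in either direction), namely Spag9, Mapk14, Map2k4 and Mapkapk3. After R848, 0 were higher and 5 lower (9.44% and 7.84% of all genes, 17.3% in either direction), namely Spag9, Map2k3, Map2k4, Mapkapk2 and Mapkapk3. Among the 6912 genes with a mean of at least 10 counts, 5.84% had a higher and 2.16% a lower response in Padi4 KO by FDR, 12.4% were higher and 24.3% lower without stimulation, and 12.9% were higher and 13.5% lower after R848. Libraries of the 2 genotypes did not overlap for 7 members lower and 0 higher in Padi4 KO without stimulation (30.1% and 25.3% of all genes), and for 6 lower and 1 higher after R848 (19.9% and 30.2%). The median log2 fold change of the members was −0.30 without stimulation and −0.32 after R848, beside −0.03 and 0.08 for all genes tested. The unstimulated calls were the less firm: DESeq2 called 0 members there (0 also at an unadjusted p below 0.05, against 5 by edgeR), and 3 of the 4 had an FDR above 0.05. DESeq2 called fewer of all genes there too, 475 higher and 586 lower against 1169 and 1767 by edgeR. The median over the 6912 genes with a mean of at least 10 counts in this comparison was −0.16 under TMM and 0.12 with library size alone, which called 0 members and, of all genes, 1901 higher and 562 lower. Separate models gave 1642 higher and 1222 lower, and thinned counts 1164 and 1040. After R848 the split of 1157 higher and 961 lower in the main fit turned to 990 and 1359 with relative log expression factors, 387 and 621 by DESeq2 and 752 and 1433 with thinned counts. It was 1869 and 417 with library size alone. Leaving out 1 of the 4 stimulated libraries also turned both splits, to between 1428 and 1597 higher and 1115 and 1258 lower without stimulation, and to between 648 and 786 higher and 1027 and 1119 lower after R848. Relative to that median under TMM, the log2 fold change was −0.33 for Spag9, −0.24 for Map2k4, −0.19 for Mapkapk3 and −0.13 for Mapk14.

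**Figure D3:**
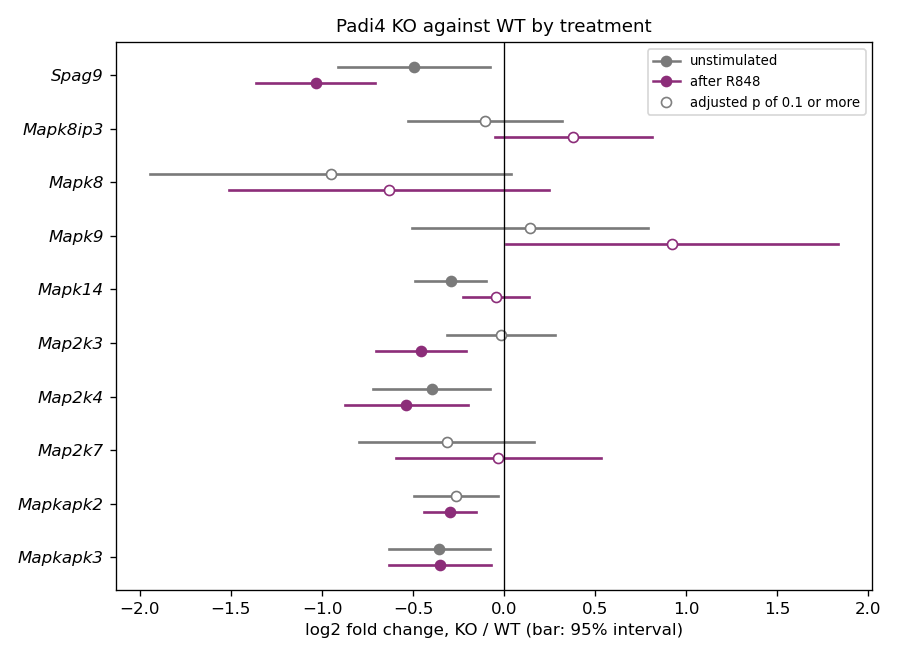
Log2 fold change of Padi4 KO against WT (horizontal axis) for each member without stimulation and after R848, with 95% intervals; open points did not pass the FDR. Spag9 after R848 lies farthest below 0 among the points that passed, at −1.03.

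Spag9 spans chr11:93996091-94126085 on the plus strand (GENCODE, GRCm38) and encodes JLP, which binds p38 and JNK together with their activators. The study singled out this gene in part from these same libraries, so its values here are no independent evidence. It had between 43 and 89 counts per library. Its level was 71.1 and 74.2 CPM in unstimulated WT, 165 and 157 CPM in WT after R848, 62.2 and 44.2 CPM in unstimulated Padi4 KO, and 77.3 and 79.9 CPM in Padi4 KO after R848. The WT libraries after R848 were above all others, and the stimulated Padi4 KO libraries were only slightly above the unstimulated WT ones.

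Spag9 rose 2.22-fold in WT (log2 fold change 1.15, SE 0.19, FDR 3.31e-08) and 1.53-fold in Padi4 KO (0.61, SE 0.18, FDR 0.00362). With library size alone the WT rise passed the FDR but not the 2-fold limit (0.84, FDR 0.000102). The rise in Padi4 KO lost its call by DESeq2 (0.50, FDR 0.224), with library size alone (0.23, FDR 0.333), with thinned counts (0.15), without the second unstimulated Padi4 KO library (0.34) and without the second stimulated one (0.46). The response was smaller in Padi4 KO by 0.54 on the log2 scale (SE 0.27, 95% interval −1.07 to −0.01 for Padi4 KO minus WT), which did not pass the FDR (unadjusted p = 0.0449, FDR 0.36). The difference passed with thinned counts (−1.15) and lay between −0.82 and −0.33, without passing, when single libraries were left out. Against WT, Spag9 was 2.05-fold lower in Padi4 KO after R848 (log2 fold change −1.03, SE 0.17, FDR 3.05e-08). That value kept its call in each alternative run, with a range of −1.15 to −1.03 when single libraries were left out. Without stimulation it was 1.41-fold lower (−0.50, SE 0.21, FDR 0.0866), a call lost when any 1 of 7 of the 8 libraries was left out; the value was −0.21 without the second unstimulated Padi4 KO library and −0.70 without the first. The difference of response and both genotype contrasts share libraries with the responses, so these values do not add up as separate evidence.

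The scaling factors mattered for the difference of response, because its median over the same 6912 genes was 0.18 under TMM, 0.02 under relative log expression factors and DESeq2, and 0.11 with library size alone. Relative to that median, the difference for Spag9 was between −0.74 and −0.72 under all 4 scalings, and for Map2k3 between −0.64 and −0.62. Mapkapk3 moved from −0.15 to 0.00 as fitted and thereby changed its sign, but lay between −0.18 and −0.17 relative to the median. A scaling shifts all genes nearly alike, so a value relative to the median is close to fixed by construction. These relative values were chosen after the data were seen and carry no test.

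**Figure D4:**
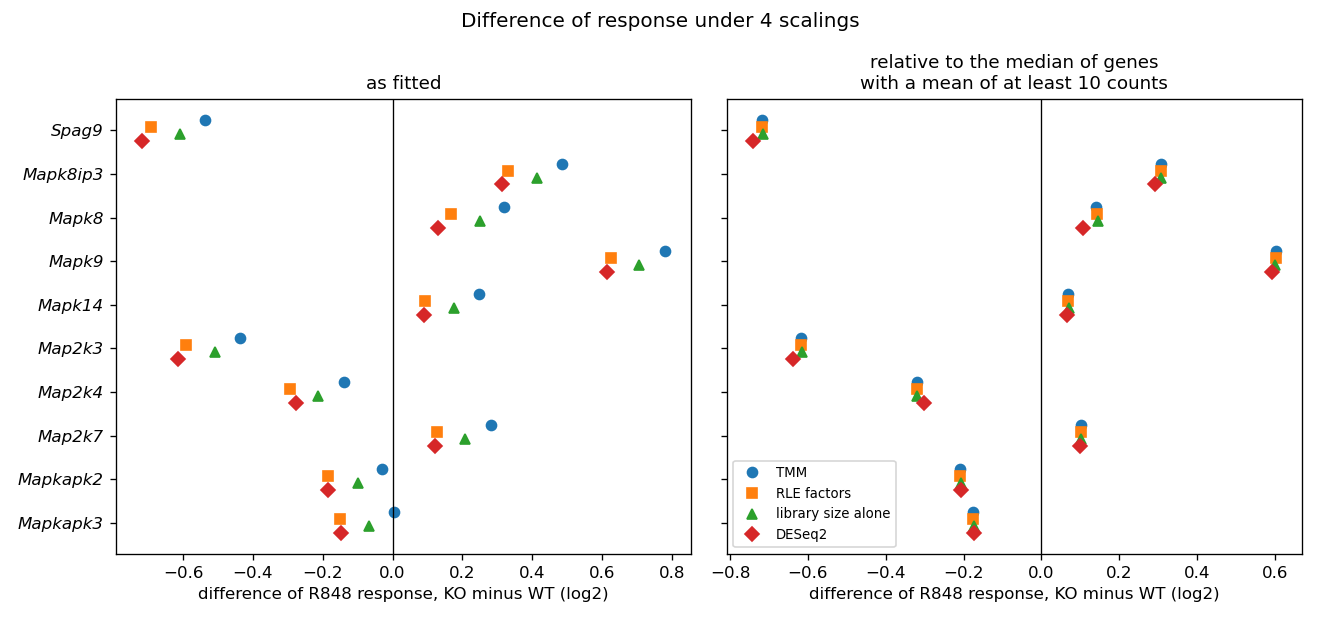
Difference of the R848 response, Padi4 KO minus WT (log2, horizontal axes), for each member under 4 scalings, as fitted (left) and relative to the median of the 6912 genes with a mean of at least 10 counts (right); each symbol is one scaling. The symbols of a gene spread on the left and nearly coincide on the right, where Spag9 and Map2k3 lie lowest.

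Mapk8ip3 (chr17:24892153-24936977, minus strand) encodes JIP3, the closest relative of JLP among the scaffolds listed. Its level was 51.0 and 74.2 CPM in unstimulated WT, 61.2 and 53.1 CPM in WT after R848, 66.7 and 51.5 CPM in unstimulated Padi4 KO, and 74.6 and 73.5 CPM in Padi4 KO after R848. The 4 groups overlapped apart from the stimulated Padi4 KO libraries, which lay above the stimulated WT and the unstimulated Padi4 KO ones. No contrast called it: the log2 fold change was −0.12 (SE 0.25) in WT and 0.36 (SE 0.18, FDR 0.113) in Padi4 KO, and 0.38 (SE 0.22, FDR 0.298) for Padi4 KO against WT after R848. The last of these passed with library size alone (0.59, FDR 0.0443), and the response in Padi4 KO passed without the first unstimulated Padi4 KO library (0.52). Of its 50-base stretches of transcript, 17.5% also occur in other genes, and 10.7% of its exon bases overlap Eme2 on the same strand. On the opposite strand 8.99% overlap Mrps34 and 3.96% overlap Nme3, and the strand setting of the counting is not known. The counts of Mapk8ip3 are therefore less certain than those of Spag9, which shares no such stretches. A ratio of counts within a library needs no scaling. The ratio of Spag9 to Mapk8ip3 was 1.39 and 1.00 in unstimulated WT and 2.70 and 2.97 in WT after R848. In Padi4 KO it was 0.932 and 0.859 without stimulation and 1.04 and 1.09 after R848, so that the stimulated WT libraries stood apart from the other 6. With 2 libraries against 2, an exact permutation test cannot go below a two-sided p of 0.333, and the ratios were not tested.

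Map2k3 (chr11:60932033-60952811, plus strand), the gene of the p38 activator MKK3, was, like Spag9, highest in WT after R848. Its level was 155 and 110 CPM in unstimulated WT, 259 and 269 CPM in WT after R848, 151 and 118 CPM in unstimulated Padi4 KO, and 195 and 191 CPM in Padi4 KO after R848. The unstimulated groups overlapped, and the 3 levels of unstimulated, stimulated Padi4 KO and stimulated WT libraries did not. Map2k3 rose 1.98-fold in WT (log2 fold change 0.98, SE 0.15, FDR 8.93e-10), just short of the 2-fold limit, and 1.46-fold in Padi4 KO (0.55, SE 0.12, FDR 6.7e-05). The WT rise exceeded the 2-fold limit under relative log expression factors (1.06), by DESeq2 (1.06), with thinned counts and with separate models, and lay between 0.77 and 1.26 when single libraries were left out. The Padi4 KO rise lost its call by DESeq2 (0.45, FDR 0.113), with library size alone (0.17, FDR 0.300) and without the second unstimulated Padi4 KO library (0.35). After R848 the gene was 1.37-fold lower in Padi4 KO than in WT (−0.45, SE 0.13, FDR 0.00412), a call lost with library size alone (−0.24, FDR 0.223), and without stimulation the log2 fold change was −0.02 (SE 0.15, FDR 0.975). The difference of response was −0.44 (SE 0.20, 95% interval −0.82 to −0.05, FDR 0.263). It passed the FDR under relative log expression factors (−0.59), with thinned counts (−0.68) and without any 1 of 3 of the stimulated libraries (−0.73 to −0.63), the exception being the second stimulated Padi4 KO library.

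Map2k4 (chr11:65688243-65788297, minus strand) encodes MKK4, which acts on JNK and p38 alike. Its level was 141 and 110 CPM in unstimulated WT, 125 and 134 CPM in WT after R848, 81.4 and 106 CPM in unstimulated Padi4 KO, and 87.9 and 90.9 CPM in Padi4 KO after R848. All 4 Padi4 KO libraries lay below all 4 WT libraries, while the treatments overlapped in each genotype. The log2 fold change after R848 was 0.04 (SE 0.18) in WT and −0.10 (SE 0.15) in Padi4 KO, where it was called lower with library size alone (−0.48, FDR 0.00755) and with thinned counts. Padi4 KO against WT gave −0.40 without stimulation (SE 0.16, FDR 0.0718) and −0.54 after R848 (SE 0.17, FDR 0.0177). The unstimulated call was lost when any 1 of 6 of the 8 libraries was left out, with values between −0.62 and −0.20 over all 8, and the smallest without the first unstimulated WT library. The call after R848 was lost by DESeq2 (FDR 0.113) and with library size alone (−0.32, FDR 0.229). Map2k7 (chr8:4238740-4247897, plus strand), the gene of the JNK activator MKK7, had 55.7 and 44.9 CPM in unstimulated WT and 38.8 and 35.4 CPM in WT after R848, with 39.6 and 41.3 CPM and 42.6 and 29.4 CPM in the corresponding Padi4 KO groups. Its WT groups did not overlap, but the log2 fold change of −0.45 (SE 0.30, FDR 0.302) did not pass, nor did any other contrast of this gene. With library size alone it was called lower after R848 in WT (−0.75, FDR 0.0383) and in Padi4 KO (−0.55, FDR 0.0449). The annotated gene Gm49320 covers 35.2% of the exon bases of Map2k7 on the same strand, so its counts are uncertain. The ratio of Map2k4 to Map2k7 counts was between 2.06 and 2.56 in the unstimulated libraries, 3.21 and 3.80 in WT after R848, and 2.06 and 3.09 in Padi4 KO after R848.

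Among the p38 and JNK members, Mapk14 (chr17:28691329-28748406, plus strand), which encodes p38α, was the most abundant. Its level was 476 and 433 CPM in unstimulated WT, 600 and 573 CPM in WT after R848, 385 and 360 CPM in unstimulated Padi4 KO, and 571 and 564 CPM in Padi4 KO after R848. The groups did not overlap, and the stimulated genotypes were nearly level. Mapk14 rose 1.29-fold in WT (log2 fold change 0.36, SE 0.10, FDR 0.00243) and 1.53-fold in Padi4 KO (0.61, SE 0.09, FDR 7.54e-11). The WT rise lost its call with library size alone (0.058, FDR 0.737). Padi4 KO against WT gave −0.29 without stimulation (SE 0.10, FDR 0.0194) and −0.05 after R848 (SE 0.09, 95% interval −0.23 to 0.14). The unstimulated call was lost when any 1 of 6 of the 8 libraries was left out, with values between −0.36 and −0.15 over all 8. The difference of response was 0.25 (95% interval −0.02 to 0.51, FDR 0.43). It was 0.09 under relative log expression factors and by DESeq2. Its sign turned with thinned counts (−0.047) and without the second stimulated WT library (−0.011). The ratio of Spag9 to Mapk14 counts was 0.149 and 0.171 in unstimulated and 0.276 and 0.275 in stimulated WT libraries. In Padi4 KO it was 0.161 and 0.123 without stimulation and 0.135 and 0.142 after R848.

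The JNK genes had few counts. Mapk8 (JNK1, chr14:33377898-33447158, minus strand) had between 5 and 19 counts per library, and Mapk9 (JNK2, chr11:49846751-49886421, plus strand) between 5 and 35, where a floor of 3 counts corresponds to between 2.55 and 5.33 CPM. Mapk9 stood at 26.3 and 22.4 CPM in unstimulated WT, 12.2 and 8.85 CPM in WT after R848, 29.4 and 25.4 CPM in unstimulated Padi4 KO, and 10.7 and 29.4 CPM in Padi4 KO after R848. Its WT groups did not overlap, whereas the 2 stimulated Padi4 KO libraries differed from each other by more than any other duplicates of this gene. The fall of Mapk9 in WT was 2.33-fold (log2 fold change −1.22, SE 0.49, FDR 0.051), and it lost its call without any 1 of 3 of the WT libraries, by DESeq2, and at an FDR of 0.05. In Padi4 KO the log2 fold change was −0.44 (SE 0.29, FDR 0.287), and with single libraries left out it ran from −1.46, which passed, without the second stimulated Padi4 KO library to −0.02 without the first. Library size alone also called this fall (−0.81, FDR 0.0188). Padi4 KO against WT after R848 was not called, but passed with library size alone (1.13, FDR 0.0799) and without the first stimulated Padi4 KO library (1.37). Mapk8 stood between 6.78 and 30.6 CPM over the 8 libraries, its groups overlapped in 3 of 4 comparisons, and no contrast called it. With single libraries left out, Padi4 KO against WT lay between −1.40 and −0.20 without stimulation and between −1.46 and 0.31 after R848, and Mapk8 passed in 1 of the 8 cases in each, without the second WT library of that treatment. The ratio of Mapk8 to Mapk9 ranged from 0.231 to 2.5 and differed by more than 2-fold between duplicates of both stimulated groups, so no order of the JNK genes could be read after R848.

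Mapkapk2 (chr1:131053700-131097826, minus strand) encodes MK2, a kinase that p38 activates and that governs the stability of cytokine mRNAs. Its level was 238 and 238 CPM in unstimulated WT, 2125 and 1978 CPM in WT after R848, 194 and 201 CPM in unstimulated Padi4 KO, and 1694 and 1647 CPM in Padi4 KO after R848. All 4 groups stood apart from each other. Mapkapk2 rose 8.61-fold in WT (log2 fold change 3.11, SE 0.10, FDR 1.09e-221) and 8.43-fold in Padi4 KO (3.08, SE 0.09, FDR 1.17e-260). The difference of response was −0.03 (SE 0.14, 95% interval −0.30 to 0.24). It was −0.18 under relative log expression factors and by DESeq2 and −0.10 with library size alone. With single libraries left out it lay between −0.31 and −0.0062. After R848 the level was 1.23-fold lower in Padi4 KO (−0.30, SE 0.07, FDR 0.000872), a call lost with library size alone (−0.078, FDR 0.551), and without stimulation the log2 fold change was −0.27 (SE 0.12, FDR 0.103).

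Mapkapk3 (chr9:107254927-107289877, minus strand) encodes MK3, the close relative of MK2 that p38 also activates. Its level was 175 and 179 CPM in unstimulated WT, 182 and 195 CPM in WT after R848, 138 and 138 CPM in unstimulated Padi4 KO, and 145 and 151 CPM in Padi4 KO after R848. Padi4 KO libraries lay below WT libraries under both treatments. The log2 fold change after R848 was 0.09 (SE 0.15) in WT and 0.10 (SE 0.13) in Padi4 KO, neither called. With library size alone the Padi4 KO value turned to −0.28 and passed (FDR 0.0758). Padi4 KO against WT gave −0.36 without stimulation (SE 0.14, FDR 0.057) and −0.35 after R848 (SE 0.14, FDR 0.0843). The unstimulated call was lost when any 1 of the 8 libraries was left out (−0.38 to −0.21). The call after R848 was lost by DESeq2 (FDR 0.180), with library size alone (−0.14, FDR 0.607), with separate models, and without 1 of 2 libraries, the first unstimulated Padi4 KO one or the second stimulated WT one. The ratio of Mapkapk2 to Mapkapk3 counts therefore rose alike in both genotypes, from 1.36 and 1.33 to 11.7 and 10.2 in WT and from 1.41 and 1.45 to 11.7 and 10.9 in Padi4 KO.

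**Figure D5:**
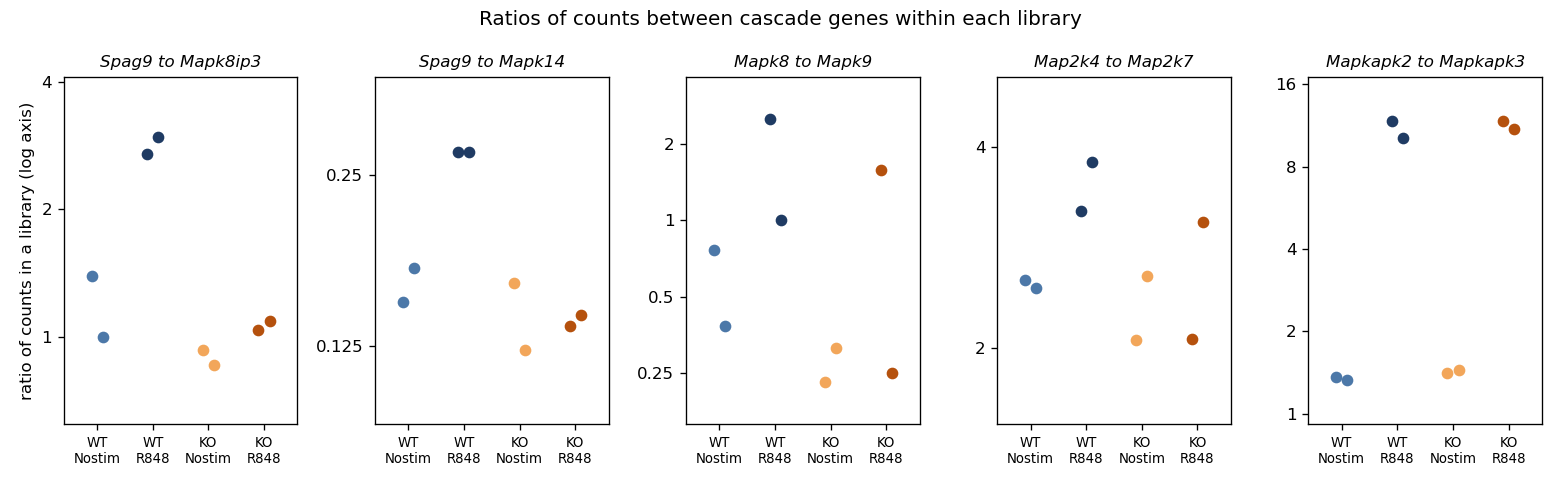
Ratios of counts between pairs of members within each library (vertical axes, logarithmic, a different range in each panel); each point is 1 library. Spag9 to Mapk14 and Spag9 to Mapk8ip3 are high in WT after R848 alone, and Mapkapk2 to Mapkapk3 is high after R848 in both genotypes.

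Of 68 further symbols of these pathways (other p38 and JNK kinases, upstream kinases, scaffolds, substrates, motor and trafficking partners, and the ERK cascade), 58 were tested. In WT, 13 rose and 14 fell by FDR, against 13.5% and 16% of all genes tested, and in Padi4 KO 18 rose and 13 fell, against 19.2% and 15.9%. Of the 58, 49 had a mean of at least 10 counts, and of all genes with such a mean 22.1% rose and 23.2% fell in WT and 30.5% and 20.4% in Padi4 KO, so in the main fit these shares were near the background of genes of that level. With library size alone 6 rose and 24 fell in WT and 10 rose and 22 fell in Padi4 KO, where more of all genes fell than rose. DESeq2 gave 10 and 6 in Padi4 KO. Map3k8, which encodes the MAP3K TPL2, had the smallest p of the MAP3K list in both genotypes and stood between 12.3 and 21.5 CPM without stimulation and between 208 and 286 CPM after R848. It rose by a log2 fold change of 3.96 in WT (SE 0.24, FDR 2.48e-58) and 3.69 in Padi4 KO (SE 0.19, FDR 9.75e-81). Rps6ka4, the gene of the p38- and ERK-activated kinase MSK2, rose by 1.53 (SE 0.29, FDR 1.32e-06) in WT and 1.10 (SE 0.20, FDR 1.89e-07) in Padi4 KO. Mapk13, which encodes p38δ, fell by 0.69 on the log2 scale in WT (SE 0.15, FDR 3.6e-05) and by 0.29 in Padi4 KO (SE 0.13, FDR 0.0656), and was the only p38 or JNK gene outside the members to pass the filter on low counts. Map2k6, the gene of MKK6, the other activator of p38, had at most 5 counts in any unstimulated library and 0 in all 4 stimulated ones, so no fold is given. Mef2c, a transcription factor that p38 phosphorylates, fell in WT (FDR 0.000756) from 7 and 7 counts to 0 and 0, and in Padi4 KO (FDR 0.000265) from 10 and 18 counts to 1 and 3. Ddit3, another p38 substrate, rose by 1.35 in WT (SE 0.39, FDR 0.00309) and by 1.35 in Padi4 KO (SE 0.27, FDR 6.55e-06).

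The difference of response called 8 of these 58 genes, 7 higher in Padi4 KO and 1 lower, against 3.44% and 1.26% of all genes tested and 5.84% and 2.16% of those with a mean of at least 10 counts. As given above, more of all genes were lower than higher in this comparison under relative log expression factors, DESeq2 and thinned counts. The lower one was Zfp36, which encodes tristetraprolin, an mRNA-destabilising protein that MK2 phosphorylates. Its level was 1038 and 1144 CPM in unstimulated WT, 884 and 941 CPM in WT after R848, 1139 and 1178 CPM in unstimulated Padi4 KO, and 651 and 653 CPM in Padi4 KO after R848. The stimulated Padi4 KO libraries were the lowest and the unstimulated groups overlapped. Its response differed by −0.58 (SE 0.11, FDR 9.85e-05). The 7 higher ones were Map3k9 (0.92, FDR 0.00347), Arrb1 (0.79, FDR 0.00642), Arf6 (0.62, FDR 0.0492), Mapk3 (0.52, FDR 0.0246), Alox5 (0.51, FDR 0.0388), Map3k3 (0.51, FDR 0.0735) and Arrb2 (0.40, FDR 0.033). Here higher does not mean induced more strongly in each case. Map3k9 (log2 fold change −1.98 in WT and −1.06 in Padi4 KO), Arrb1 (−1.38 and −0.59) and Alox5 (−1.44 and −0.93) fell after R848 in both genotypes, with a smaller fall in Padi4 KO. Map3k3 (−0.60 and −0.09) and Mapk3 (−0.35 and 0.17) fell in WT and were not called in Padi4 KO. Arf6 (0.34 and 0.96) rose in both genotypes, and Arrb2 (−0.00105 and 0.40) passed in Padi4 KO but not in WT. DESeq2 called 0 of these 7, and their direction is that of the median of all genes in the main fit with TMM. Without stimulation, 0 of the 58 were higher and 25 lower in Padi4 KO, against 9.54% and 14.4% of all genes, and after R848 1 was higher and 7 lower, against 9.44% and 7.84%. Among genes with a mean of at least 10 counts, 12.4% were higher and 24.3% lower without stimulation, and 12.9% and 13.5% after R848. With library size alone, 3 of the 58 were higher and 9 lower without stimulation, where more of all genes were higher than lower. Unstimulated, the β-arrestin scaffold gene Arrb2 was lower by 0.91 on the log2 scale (log2 fold change −0.91, SE 0.09, FDR 8.67e-24) and Map3k9 by more (−1.02, SE 0.12, FDR 1.39e-15). The remaining genes with the smallest p of their list there were Alox5 (−0.75), Mef2a (−0.65), Mapk3 (−0.57), Mapk13 (−0.55), Arf6 (−0.53) and Mknk1 (−0.47). After R848 these were Creb1 (−0.75), Map3k11 (−0.55), Arrb2 (−0.51) and Zfp36 (−0.49).

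The pattern of Spag9 over the 8 libraries was compared with those of 6911 other genes with a mean of at least 10 counts, by the root mean square difference of log2 CPM values centred on each gene. The 5 nearest were Olfm4 (0.12), Txnip (0.13), Eea1 (0.14), Ccnl1 (0.16) and Erbb2ip (0.17). These 8 libraries are the same for every gene, so depth and scaling are shared and the values are a description only.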

How the data were processed

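RNA of 8 libraries of mouse bone marrow neutrophils was analysed. The authors checked reads with FastQC 0.11.7, trimmed them with cutadapt 1.16, filtered them with the FASTX toolkit, mapped them to mm10 with STAR 2.5.3a and counted them per gene with HTSeq 0.6.1p1; the deposited values are raw counts. The annotation and strand setting are not given in the sources used here. Between 87.0% and 89.4% of the reads in the table were on genes; the summary lines of the counter were left out.

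Groups came from the labels. Genes with at least 1 count in at least 2 libraries were fitted with edgeR 4.0.16 (limma 3.58.1, R 4.3.3): TMM factors, 4 group means and the robust quasi-likelihood test, whose common biological coefficient of variation was 4.70%. SE is the absolute log2 fold change over the square root of F. Alternatives were DESeq2 1.42.0, other filters and scalings, a replicate block, thinning to 562446 counts, separate models, an FDR of 0.05 and each library left out. The fit was also run on simulated counts with 200 changed genes. These had the same spread for all genes and no shifts of scaling, so the run says nothing of such shifts here. Duplicates differed by more than counting noise (chi-square over degrees of freedom 1.05 to 1.67). Members and lists were chosen with earlier results of these data known. Named genes were the members, Padi4, in each other list the gene with the smallest p past the FDR in each contrast, listed genes past the FDR in the difference of response, and the 5 genes most like Spag9; 1 gene that this rule names is left out here. Exon lengths and overlaps are from GENCODE on GRCm38 and promoters from RefSeq; protein sequences were not used here.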

Additional observations from a re-analysis of the deposited data

How the results depend on the processing

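Of 840 values of single members under an alternative, 679 kept their direction and side of the FDR, 73 lost the call, 19 gained one and 69 changed sign, all of the last in values that had not passed. The causes were not tested. The spread rests on 2 libraries per group, and the JNK genes on at most 35 counts.

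Library size alone moved the median of the 6912 genes with a mean of at least 10 counts in the WT response from −0.07 to −0.38. With it, the log2 fold change turned to −0.26 for Map2k4 and −0.21 for Mapkapk3 in WT, to −0.014 for Mapk8ip3 and −0.28 for Mapkapk3 in Padi4 KO, to −0.069 for the difference of response of Mapkapk3, to 0.18 for Mapk8ip3, 0.27 for Map2k3 and 0.022 for Mapkapk2 in unstimulated Padi4 KO against WT, and to 0.17 for Mapk14 and 0.18 for Map2k7 after R848. Its counts of calls were, in WT, 1 member higher by both limits, 2 lower by FDR, and 6 other listed genes higher and 24 lower; in Padi4 KO, 2 members higher and 4 lower by FDR, and 10 other genes higher and 22 lower (2 and 9 by both limits); 3 other genes with a higher response in Padi4 KO; 0 members lower, with 3 other genes higher and 9 lower, without stimulation; and 2 members higher and 1 lower, with 4 other genes higher and 4 lower, after R848. Of all genes it called 1075 higher and 3127 lower in WT (1659 and 1961 with TMM), 1264 and 3820 in Padi4 KO (2353 and 1945), and 255 and 170 in the difference.

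DESeq2 called 0 members lower in WT, 2 higher in Padi4 KO (with 10 other genes higher and 6 lower), 0 lower without stimulation (with 8 other genes lower), 3 lower and 0 other genes higher after R848, and 0 other genes in the difference upward; it turned the difference of Mapkapk3 to −0.15 and Map2k3 without stimulation to 0.062. Relative log expression factors called Map2k3 in the difference (1 member lower, with 2 other genes higher), 1 member lower without stimulation and 12 other genes lower after R848, and turned the same values to −0.15 and 0.039. Thinned counts called 2 members lower in the difference (Spag9 at −1.15 and Map2k3), 1 lower in Padi4 KO and 0 without stimulation, and gave −0.11 for Mapk8ip3 and −0.27 for Mapkapk3 in Padi4 KO, differences of −0.026 for Mapk8ip3, −0.48 for Mapk8, −0.047 for Mapk14, −0.057 for Map2k7 and −0.54 for Mapkapk3, and, without stimulation, 0.17 for Mapk8ip3 and 0.10 for Map2k3. Separate models called 0 members without stimulation, with 0.039 for Mapk8ip3 and 0.12 for Map2k3. The filterByExpr filter gave −0.015 for Map2k4 in WT, −0.00135 for the difference of Mapkapk3 and 2 other genes lower by both limits in Padi4 KO. An FDR of 0.05 left 0 members lower in WT and 1 without stimulation. Of all genes, DESeq2 called 1285 higher and 979 lower in WT and 1206 and 915 in Padi4 KO; relative log expression factors 1807 and 1740 in WT, 2059 and 2288 in Padi4 KO, and 1309 and 1502 without stimulation; thinned counts 1892 and 1508 in WT and 1491 and 1841 in Padi4 KO; and separate models 1933 and 1649 in WT and 2401 and 2102 in Padi4 KO.

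The replicate numbers did not pair the libraries (correlations of deviations between −0.02 and 0.02). With the replicate block no member gained or lost a call, and Map2k3 without stimulation moved to 0.000275.

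Leaving out 1 library gave, in WT, −0.38 to 0.16 for Mapk8ip3, −0.58 to 1.15 for Mapk8, −0.12 to 0.23 for Map2k4 and 0 to 1 members lower; in Padi4 KO, −0.17 to 1.02 for Mapk8, −0.25 to 0.14 for Map2k4, −0.062 to 0.10 for Mapkapk3, 2 to 5 members higher and 0 to 1 lower; in the difference, −0.63 to 1.14 for Mapk8, −0.33 to 1.10 for Mapk9, −0.011 to 0.31 for Mapk14, −0.47 to 0.092 for Map2k4, −0.25 to 0.42 for Map2k7, −0.32 to 0.024 for Mapkapk3 and 0 to 1 members lower; without stimulation, −0.36 to 0.17 for Mapk8ip3, −0.23 to 0.26 for Map2k3 and 0 to 3 members lower; and after R848, −1.46 to 0.31 for Mapk8, −0.062 to 1.37 for Mapk9, −0.44 to 0.11 for Map2k7 and 0 to 1 members higher. A group reduced to 1 library was assumed to vary like the others.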
